A study of Mus musculus with 24 samples.

Results

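Peroxiredoxins are enzymes that reduce hydrogen peroxide through a reactive cysteine, and most of them are then reduced again by thioredoxin, which in turn takes electrons from NADPH through thioredoxin reductase. In mitochondria, the main source of superoxide in the beating heart, superoxide dismutase 2 (Sod2) turns superoxide into hydrogen peroxide, peroxiredoxin 3 (Prdx3) removes the peroxide, and thioredoxin 2 (Txn2) and thioredoxin reductase 2 (Txnrd2) recharge Prdx3. The set described here holds 9 genes of this system: Prdx1 to Prdx6, Txn2, Txnrd2 and Sod2. A gene was measured where the platform's probe-to-gene table gave a feature its symbol alone, which held for 6 of the 9 members, Prdx2, Prdx3, Prdx4, Txn2, Txnrd2 and Sod2, with 1 feature each, out of 22180 genes in all. The 3 features of Prdx1 carry several symbols and were left out, and Prdx5 and Prdx6 have no entry in that table.

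The hearts came from 8-week-old male Clock delta 19/delta 19 mice, which are homozygous for an allele whose protein lacks a stretch needed to activate transcription, and the tissue is labelled myocardium. The mice lived with lights on for 12 h and off for 12 h, and hearts were taken at zeitgeber time (ZT, hours from lights on) 3, 7 and 11 in the light phase and 15, 19 and 23 in the dark phase, with 4 hearts at each time point and 24 arrays in total. All groups carry the mutation, the labels name no treatment, and no value below compares genotypes, as hearts of another genotype were not analysed here. Prdx3 was chosen because its level differed between these same time points, and the others because they belong to its system. The time courses of the members are therefore given as a description, without a test.

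Values are log2 differences from the median of a gene over the 24 arrays. No source used here states the base of the logarithm. If it were e, each log2 size below would be 1.44 times larger. Because each gene is centred, the values carry no level, with 1 exception: the step between the deposited numbers is, for 666 of 34351 features (1.94%), the coarser one that single-precision numbers between 8 and 16 take, while the other features show the step of numbers between 4 and 8 (tolerance 1e-07). By this step, Prdx3 and Sod2 belonged to the brighter class before centring, and Prdx2, Prdx4, Txn2 and Txnrd2 to the dimmer. Of 10 markers of heart muscle cells, 9 were in the brighter class. Of 8 genes listed for skeletal muscle, Ckm among them, 0 were in it. Whether the genes of that list are particular to skeletal muscle was not tested. The brighter class held 3 of 8 markers of endothelium, 1 of 8 of fibroblasts and 0 of 8 of macrophages. It also held 0 of 5 of brown fat and 0 of 3 of red blood cells. How closely the step follows the level of a gene was not tested. The number of arrays limits the precision. The SD within time points was 0.090 for Prdx3, 0.10 for Prdx2, 0.076 for Prdx4, 0.097 for Txn2, 0.083 for Txnrd2 and 0.048 for Sod2, beside a median of 0.087 over all genes.

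Promoter sequences are shown first, so that the elements of factors that act on genes of this kind can be seen in place, among them the E-box bound by CLOCK and its partner. RefSeq (GRCm38.p6) gave a window of 250 bases before to 50 bases after the transcription start for 8 of the 9 members. The 250 bases before the start are printed for Prdx3, whose level varied most, for Prdx4, the member with an E-box, and for Txn2, whose window held the most matches. They lie at chr19:60874539-60874788 (minus strand), chrX:155338461-155338710 (minus strand) and chr15:77928995-77929244 (minus strand). The windows of Prdx3 and Txn2 end at the gene's outer start (genes at chr19:60864066-60874538 and chr15:77915051-77928994), while that of Prdx4 belongs to a transcript start inside the annotated gene (chrX:155323918-155342272). Capitals mark each match to the letters searched for one of the elements named below.
Prdx3: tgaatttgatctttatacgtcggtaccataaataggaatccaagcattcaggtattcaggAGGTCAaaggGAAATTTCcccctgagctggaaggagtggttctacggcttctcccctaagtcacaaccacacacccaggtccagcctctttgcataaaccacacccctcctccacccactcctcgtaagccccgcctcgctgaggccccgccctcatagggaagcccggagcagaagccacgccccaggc
Prdx4: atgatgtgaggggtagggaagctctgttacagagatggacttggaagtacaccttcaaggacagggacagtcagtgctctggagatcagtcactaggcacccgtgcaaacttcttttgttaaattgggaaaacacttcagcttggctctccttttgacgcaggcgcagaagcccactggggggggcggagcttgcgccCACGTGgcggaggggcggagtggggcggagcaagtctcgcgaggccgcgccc
Txn2: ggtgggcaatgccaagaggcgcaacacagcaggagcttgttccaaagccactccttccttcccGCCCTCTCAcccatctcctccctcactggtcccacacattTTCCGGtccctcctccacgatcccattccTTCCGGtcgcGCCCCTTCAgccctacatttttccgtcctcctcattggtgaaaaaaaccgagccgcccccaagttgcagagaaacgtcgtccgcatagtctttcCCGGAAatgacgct

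Both strands were searched for 8 elements, and none of the matches in these 3 windows overlapped each other. The E-box CACGTG was found in 1 of the 8 members, in Prdx4 at 52 bases before the start, and in 7.15% of all 32851 promoter windows. The Prdx3 window held AGGTCA, the core bound by many nuclear receptors, at 190 bases before the start (2 of 8 members, with Txnrd2, and 16.3% of all windows). It also held GAANNTTC, the core of the heat shock element, at 180 bases before the start (1 of 8 members, 7.86% of all windows). TGANNNNGC, in which N is any base, was searched as a loose form of the antioxidant response element core bound by NRF2. In Txn2 this loose form was found at 187 and 108 bases before the start. It was found in 3 of 8 members (with Prdx1 and Prdx5) and in 41.3% of all windows, so a match alone does not mark an NRF2 element. Whether the matches in Txn2 meet a stricter form was not tested. The ETS core CCGGAA was found in Txn2 at 147, 118 and 14 bases before the start (3 of 8 members, with Prdx5 and Sod2, and 14.9% of all windows). The D-box TTATGTAA, the NRF1 element and the forkhead core TGTTTAC were found in 0 of 8 members and in 0.938%, 4.60% and 3.65% of all windows. These matches describe letters in the windows and show no binding.

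Prdx3, the peroxidase of the mitochondrial matrix, was highest early in the light phase and lost that height within it. At ZT03 the 4 hearts were at 0.36, 0.33, 0.39 and 0.42. At ZT07 they were at 0.12, 0.13, 0.16 and 0.067. At ZT11 they were at -0.22, -0.11, -0.10 and -0.079. No heart of these 3 time points overlapped the next: the mean went from 0.38 ± 0.040 (SD, n = 4) at ZT03 through 0.12 ± 0.038 at ZT07 to -0.13 ± 0.062 at ZT11. In the dark phase the hearts were at 0.16, -0.024, -0.14 and -0.079 at ZT15 and at 0.032, -0.061, 0.024 and 0.28 at ZT19. At ZT23 they were at -0.14, -0.095, -0.096 and -0.21. The spread was wider at ZT15 (-0.020 ± 0.13) and ZT19 (0.068 ± 0.15), each with 1 heart well above the other 3, while all ZT23 hearts (-0.14 ± 0.056) were below all ZT19 hearts. In the order of the means (ZT03, ZT07, ZT19, ZT15, ZT11, ZT23), ZT03 and ZT07 were the only neighbours whose hearts did not overlap.

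Between ZT03 and ZT11 the level of Prdx3 differed by 0.50 ± 0.062 (SE of the fit), a 1.42-fold difference, and 84 genes had a larger absolute difference. The rise from ZT23 to ZT03 was of the same size, 0.51. The ZT03 and ZT11 hearts of Prdx3 did not overlap, which held with ZT03 higher for 1 of the 6 members and 4.62% of all genes and with ZT03 lower for 0 members and 3.47% of all genes. For other pairs of time points, above and below, the share of all genes without overlap was not counted. Such separations are therefore given as a description only. All 4 ZT03 hearts of Prdx3 were above all 20 other hearts, of which the highest was at 0.28. The same held for 0.126% of all genes, and 17.3% of all genes had their highest mean at ZT03. Since Prdx3 was chosen on its differences between these time points, its rank and these shares are a description and test nothing. Without ZT11 replicate 1, the array of lowest weight, or any other heart, the difference between ZT03 and ZT11 lay between 0.47 and 0.52.

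**Figure D1:**
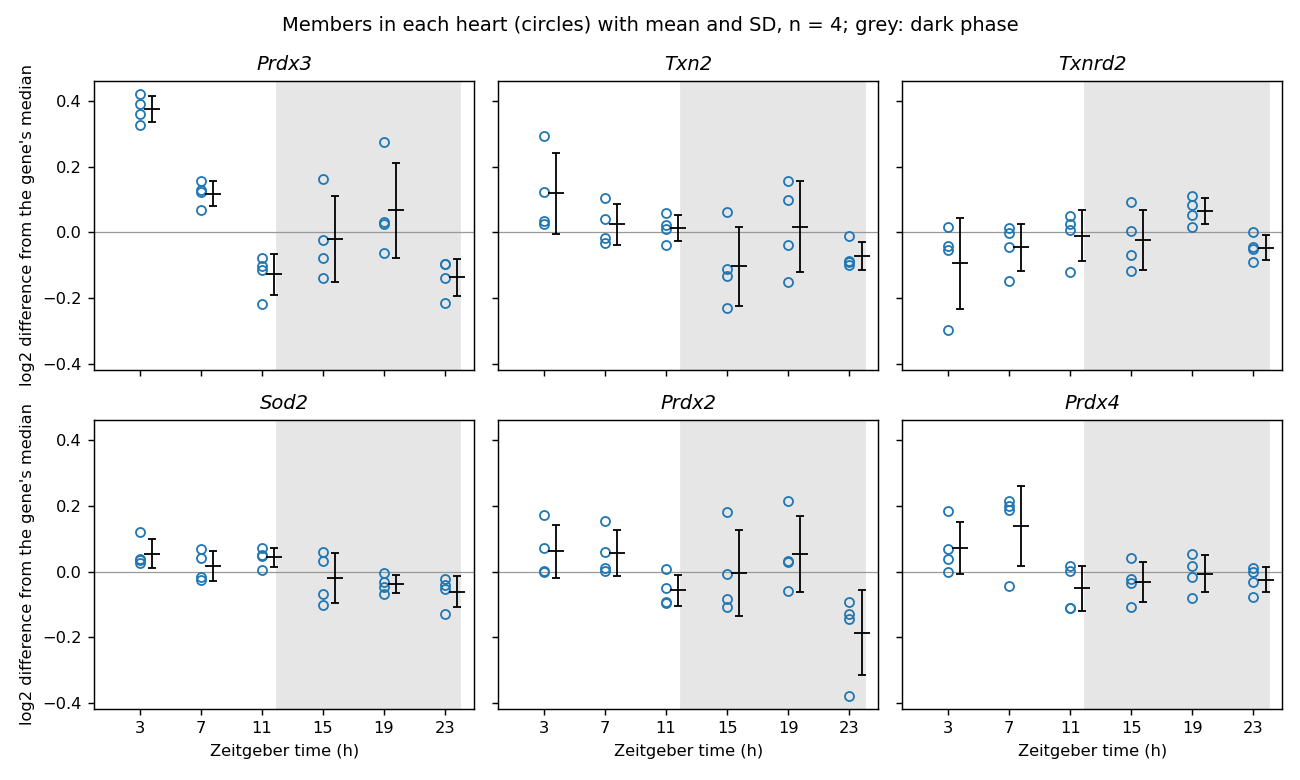
Each panel plots the log2 difference from the median of 1 gene against zeitgeber time in hours, with a circle for each of 24 hearts and a bar for the mean and SD (n = 4); the dark phase is grey. Prdx3 starts at 0.38 at ZT03 and ends at -0.14 at ZT23, while no other member has a time-point mean outside -0.19 to 0.14.

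Txn2, the thioredoxin that recharges Prdx3, was also highest at ZT03, over a smaller range. Its ZT03 hearts were at 0.12, 0.025, 0.036 and 0.29, and its ZT15 hearts, the lowest by mean, at 0.061, -0.11, -0.13 and -0.23. The mean was 0.12 ± 0.12 (SD, n = 4) at ZT03 and -0.10 ± 0.12 at ZT15. In between lay ZT07 (0.025 ± 0.063), ZT19 (0.017 ± 0.14), ZT11 (0.013 ± 0.040) and ZT23 (-0.072 ± 0.042). Neighbours in this order overlapped throughout, and without ZT15 replicate 4 the ZT15 mean was -0.061 and ZT23 was lowest. All 12 light-phase hearts of Txn2 exceeded the dark-phase median (-0.089), and all ZT03 hearts were above all ZT23 hearts. The share of all genes that show either was not counted.

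Txnrd2, the selenoprotein reductase that recharges Txn2, was the 1 member with its highest mean in the dark phase. Its lowest mean was at ZT03 (-0.094 ± 0.14, SD, n = 4), where the hearts were at -0.042, -0.053, -0.30 and 0.016, with replicate 3 well below the other 3. Without that heart the ZT03 mean was -0.026, and the lowest mean was that of ZT23. Txnrd2 was highest at ZT19 (0.066 ± 0.040), where the hearts were at 0.054, 0.083, 0.11 and 0.018. All ZT23 hearts (-0.046 ± 0.038) were below all ZT19 hearts, and no other step between neighbouring time points was free of overlap. The means at ZT07, ZT11 and ZT15 were -0.045, -0.0094 and -0.023.

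Sod2, the source of the peroxide that Prdx3 removes, varied least. Its means were 0.055 ± 0.045 (SD, n = 4) at ZT03, 0.017 ± 0.045 at ZT07 and 0.043 ± 0.029 at ZT11, against -0.020 ± 0.077 at ZT15, -0.038 ± 0.027 at ZT19 and -0.061 ± 0.047 at ZT23. Its light-phase hearts ran from -0.024 to 0.12 with a median of 0.039, and its dark-phase hearts from -0.13 to 0.059 with a median of -0.044. All 12 light-phase hearts thus exceeded the dark-phase median, and 11 of 12 dark-phase hearts were below the median of the light phase. For Sod2 too, the share of all genes that show either was not counted. Light-phase hearts above the dark-phase median numbered 12 for Txn2, 10 for Prdx2, 9 for Prdx4, 8 for Prdx3 and 5 for Txnrd2. Sod2 did not share the fall of Prdx3 within the light phase: ZT03 minus ZT11 was 0.011 ± 0.036 (SE of the fit) for Sod2.

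Prdx2, a cytosolic peroxiredoxin that is abundant in red blood cells, was lowest at the end of the dark phase. Its ZT23 hearts were at -0.092, -0.14, -0.13 and -0.38, all below the 4 hearts of ZT19 (-0.061, 0.028, 0.032 and 0.21) and the 4 of ZT03 (-0.0026, 0.0030, 0.073 and 0.17). The mean was -0.19 ± 0.13 (SD, n = 4) at ZT23, and 0.061 ± 0.081 at ZT03, 0.057 ± 0.070 at ZT07 and 0.053 ± 0.12 at ZT19, with overlap between neighbours throughout the order. At ZT11 it was -0.058 ± 0.048 and at ZT15 -0.0047 ± 0.13. Of 10 red blood cell markers, 3 were measured here (Slc4a1, Bpgm and Ermap). Their mean ran from -0.066 to 0.060 over the ZT23 hearts, from 0.014 to 0.095 over the ZT19 hearts and from -0.041 to 0.052 over the ZT03 hearts. It ran from -0.0087 to 0.057 at ZT07, from -0.0075 to 0.11 at ZT11 and from -0.052 to 0.024 at ZT15. Averaged over the hearts of a time point it was highest at ZT11 (0.060) and ZT19 (0.056), where Prdx2 was at -0.058 and 0.053. It was lowest at ZT23 (-0.018), where Prdx2 was at -0.19 and also lowest. At ZT03, ZT07 and ZT15 the marker average was -0.0035, 0.019 and -0.0068. The part of these markers in the level of Prdx2 was not tested. In a whole tissue, fewer cells of a type and less RNA per cell cannot be told apart.

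Prdx4, the peroxiredoxin of the endoplasmic reticulum, was the member with its highest mean at ZT07. The ZT07 hearts were at 0.20, -0.043, 0.21 and 0.19, so that 3 of 4 were above every heart of ZT11 to ZT23, the highest of which was at 0.053. The mean was 0.14 ± 0.12 (SD, n = 4) at ZT07, 0.072 ± 0.079 at ZT03 and -0.052 ± 0.070 at ZT11. It was -0.031 ± 0.061 at ZT15, -0.0068 ± 0.057 at ZT19 and -0.025 ± 0.039 at ZT23. No step between neighbouring time points was free of overlap for Prdx4.

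The plot of differences sets the members side by side. From ZT03 to ZT11, Prdx4 differed by 0.12 ± 0.053 (ZT03 minus ZT11, SE of the fit), Prdx2 by 0.12 ± 0.069, Txn2 by 0.11 ± 0.066 and Txnrd2 by -0.084 ± 0.057. Without ZT03 replicate 3 the value of Txnrd2 was -0.017, and without ZT03 replicate 4 that of Txn2 was 0.048. The median of the 6 members was 0.11, against -0.0050 over all genes tested. For the light phase minus the dark phase, Prdx3 differed by 0.15 ± 0.036, Txn2 by 0.11 ± 0.038, Sod2 by 0.078 ± 0.021, Prdx4 by 0.074 ± 0.031, Prdx2 by 0.066 ± 0.040 and Txnrd2 by -0.049 ± 0.033 (-0.026 without ZT03 replicate 3). The value was above 0 in 5 of 6 members (median 0.076) and in 47.4% of all genes (median -0.0022). A curve of 24 h put the peak at ZT3.47 for Prdx3, with an amplitude (mean to peak) of 0.14 ± 0.048. It gave ZT4.59 and 0.067 ± 0.030 (SE of the fit) for Txn2, ZT4.91 and 0.072 ± 0.024 for Prdx4 and ZT7.68 and 0.049 ± 0.015 for Sod2, beside a median amplitude of 0.032 over all genes. For Txnrd2 it gave ZT16.6 and 0.053 ± 0.024, and 0.035 without ZT03 replicate 3. For Prdx2 it gave ZT8.88 and 0.038 ± 0.036, which is close to its SE, and leaving out ZT23 replicate 4 gave 0.020 and ZT19 replicate 4 gave 0.061. With 1 cycle sampled, such a curve does not show that the profile repeats.

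**Figure D2:**
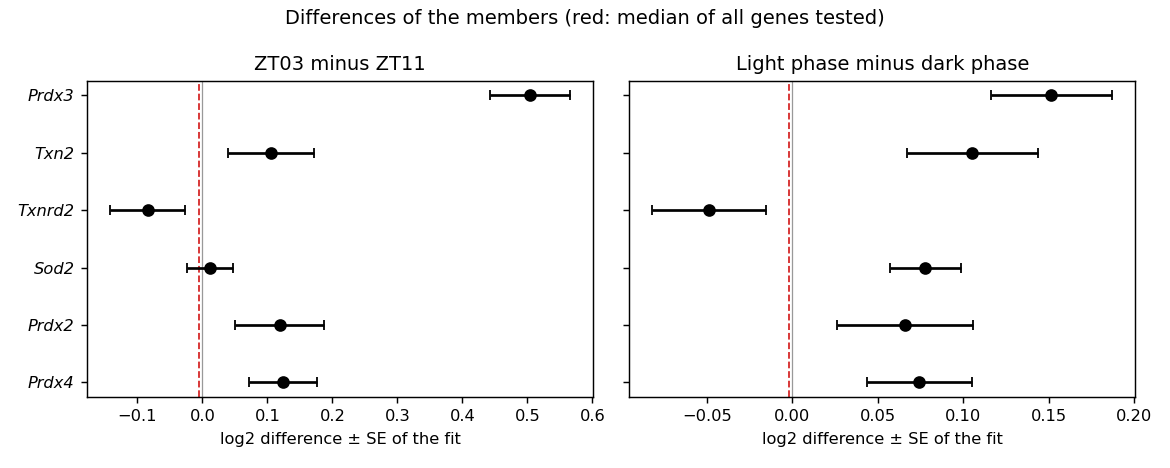
Points give the log2 difference of each member between ZT03 and ZT11 (left) and between the light and dark phases (right), with the SE of the fit, and the dashed red line the median of all genes tested (-0.0050 and -0.0022). Prdx3 lies at 0.50 and 0.15, and Txnrd2 is the 1 member below 0 in both panels, at -0.084 and -0.049.

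In limma fits over all 22180 genes with Benjamini-Hochberg adjustment at 0.05, the contrast of ZT03 and ZT11 called 2.29% (1.83% higher at ZT03). The test of any difference among time points called 1.48% of all genes. The light-dark contrast called 0.379% of all genes (0.243% higher in light), and the 24 h curve 0.0631%. At an unadjusted limma p under 0.05, the light-dark contrast took 10.5% of all genes and the 24 h curve 10.8%. Since Prdx3 was chosen on these hearts, calls of the members are not given. The counts of genes behind these shares moved with single hearts. For ZT03 against ZT11 the count was 507, and it was 306, 241 or 190 without ZT03 replicate 1, 2 or 3 and 203 or 244 without ZT11 replicate 1 or 3. For the time points it was 329, and leaving out ZT03 replicate 1, 2 or 3 gave 180, 145 or 28, ZT07 replicate 3 gave 182, and ZT11 replicate 2 or 3 gave 211 or 189. For light against dark it was 84, and leaving out ZT03 replicate 3 gave 51, ZT07 replicate 3 gave 53 and ZT11 replicate 1 gave 183. For the 24 h curve it was 14, and leaving out ZT11 replicate 2 or either of ZT03 replicates 1 and 3 gave 3. It was 5 without ZT15 replicate 4, 6 without ZT07 replicate 3 or 4, 7 without ZT07 replicate 1 or 2 or ZT19 replicate 3, 8 without ZT15 replicate 1, 9 without ZT23 replicate 2, 29 without ZT23 replicate 1 and 45 without ZT19 replicate 4.

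The genes most like Prdx3 over the 24 hearts followed the same fall from ZT03 to ZT11 with a lesser height at ZT19. The 8 with the highest Pearson correlation were Uqcrc2 (r = 0.93), a core subunit of respiratory complex III, Tmem65 (0.93), Serinc1 (0.91), Tmem59 (0.90), Slc25a12 (0.89), the mitochondrial carrier of aspartate and glutamate, Ppp3cb (0.88), a catalytic subunit of calcineurin, Cdc23 (0.88), a subunit of the anaphase-promoting complex, and Aasdhppt (0.88), which adds the phosphopantetheine arm to carrier proteins. Their Spearman rho with Prdx3 ran from 0.85 for Ppp3cb to 0.92 for Tmem59. Uqcrc2 lay at 0.21 ± 0.040 (SD, n = 4) at ZT03 and -0.070 ± 0.085 at ZT11. Tmem59 had the largest difference between ZT03 (0.47 ± 0.14) and ZT11 (-0.24 ± 0.20) of these 8. After the mean of each time point was removed, r with Prdx3 was 0.80 for Slc25a12, 0.70 for Uqcrc2 and 0.53 for Cdc23, the lowest of the 8.

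The 4 genes most opposite to Prdx3 were Lpl (r = -0.88), which codes for lipoprotein lipase, Ckm (-0.83), the muscle creatine kinase, Malat1 (-0.83), a long noncoding RNA of the nucleus, and Cryab (-0.82), a small heat shock protein. Ckm lay at -0.28 ± 0.11 (SD, n = 4) at ZT03 and 0.26 ± 0.11 at ZT11, and Malat1 at -0.27 ± 0.11 and 0.031 ± 0.068. Over all genes, 80 had r of 0.8 or more with Prdx3 and 4 had r of -0.8 or less. These correlations were ranked on the same hearts that chose Prdx3, and their points share arrays. The members themselves were less like Prdx3, with r of 0.68 for Prdx2, 0.59 for Txn2, 0.50 for Prdx4, 0.47 for Sod2 and -0.27 for Txnrd2.

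**Figure D3:**
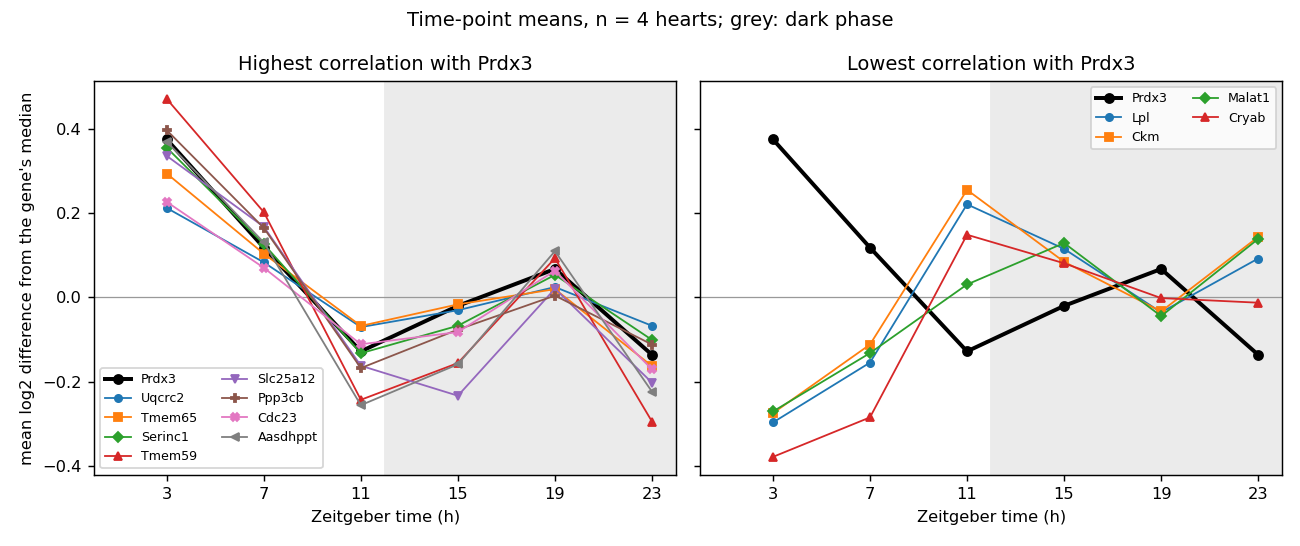
Lines join the time-point means (log2 difference from the median, n = 4 hearts) against zeitgeber time in hours for Prdx3 (black) and for the 8 genes with the highest (left) or 4 with the lowest (right) correlation with it. The genes on the left start above 0 at ZT03, from 0.21 for Uqcrc2 to 0.47 for Tmem59, and those on the right start below 0, from -0.38 for Cryab to -0.27 for Malat1.

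The profile of Prdx3 also followed the main axis along which the arrays differed. The first principal component over all genes held 16.4% of the variance and correlated with Prdx3 over the 24 hearts at r = 0.85 (rho 0.89). Its scores ran from 5.77 to 9.09 at ZT03 and from -16.3 to 3.86 at ZT11, the lowest belonging to ZT11 replicate 1, and its part in the profile of Prdx3 was not tested. The mean of the 10 markers of heart muscle cells ran from -0.094 to 0.034 over the ZT03 hearts and from -0.063 to 0.11 over the ZT11 hearts. For the 8 markers of fibroblasts it ran from 0.056 to 0.17 and from -0.14 to 0.10, and for the 8 of macrophages from -0.036 to 0.11 and from -0.16 to 0.066. For the 8 markers of endothelium it ran from -0.021 to 0.029 and from -0.11 to 0.071. For the 5 markers of brown fat it ran from -0.055 to 0.0039 and from -0.030 to 0.11. For the 8 genes listed for skeletal muscle, Ckm among them, it ran from -0.18 to -0.011 and from -0.024 to 0.070. Between ZT03 and ZT11, limma called Tnni3 (1 of 10 markers of heart muscle cells) and Ckm (1 of 8 genes listed for skeletal muscle) lower at ZT03. It called Emcn (1 of 8 of endothelium) and Dcn (1 of 8 of fibroblasts) higher. For macrophages (0 of 8), brown fat (0 of 5) and red blood cells (0 of 3) no marker was called, beside 2.29% of all genes. The part of the cell makeup in the profile of Prdx3 was not tested.

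Whether the members vary together from heart to heart is a measure that the choice of Prdx3 did not use. After the mean of each time point was removed, the correlation was highest between Prdx2 and Prdx3 among the 15 pairs of members (r = 0.67, permutation p = 0.0093 with 100000 permutations of hearts within time points, two-sided, adjusted p = 0.14 over the 15 pairs). Spearman's rho for this pair was 0.58 (permutation p = 0.012, adjusted p = 0.18). In the ZT15 and ZT19 hearts the same replicates were highest for both genes, ZT15 replicate 1 at 0.16 for Prdx3 and 0.18 for Prdx2, and ZT19 replicate 4 at 0.28 and 0.21. Once time-point means were removed, these 2 hearts were the farthest from the median for Prdx3, and r was 0.43 without them. Without the 2 whose deviations were farthest for Prdx2 (ZT23 replicate 4 and ZT15 replicate 1) it was 0.56. Of all genes, 0.577% had a larger absolute r with Prdx3 within time points. After adjustment 0 of the 15 pairs passed by permutation, and 1 had an unadjusted p under 0.05. The other pairs with Prdx3 had r of 0.44 for Sod2, 0.40 for Txn2, 0.17 for Prdx4 and -0.18 for Txnrd2. The lowest of the 15 was that of Prdx4 and Txnrd2 at -0.47 (permutation p = 0.058, adjusted p = 0.21), and the points of every pair share an array.

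**Figure D4:**
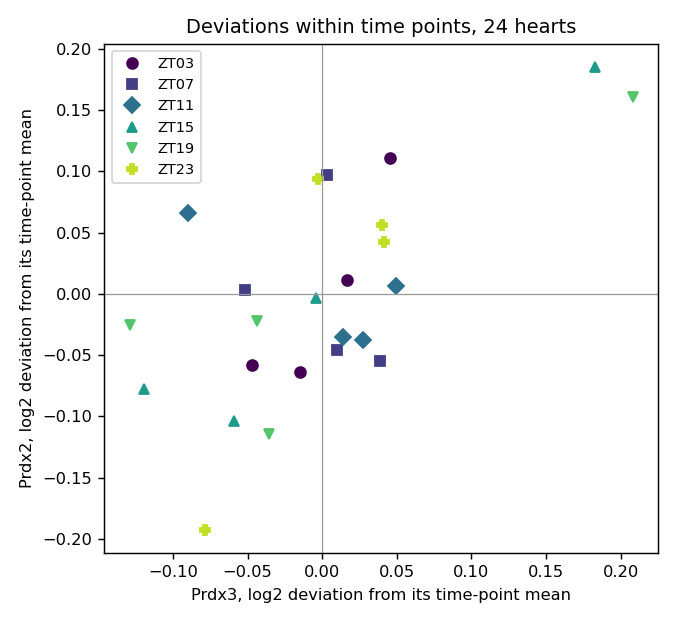
Each of 24 points is a heart, placed by the log2 deviation of Prdx3 (horizontal) and Prdx2 (vertical) from its time-point mean, with a symbol for each time point. The points of ZT15 replicate 1 and ZT19 replicate 4 lie apart at the upper right, and r falls from 0.67 to 0.43 without them.

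Around the members, a list of 28 partner genes of the thioredoxin, glutathione and superoxide systems was measured in full. Glrx, which codes for glutaredoxin, the cytosolic enzyme that removes glutathione from proteins, was higher at ZT03 than at ZT11, as Prdx3 was. Glrx was at 0.10 at ZT03 and -0.35 at ZT11, a difference of 0.45 ± 0.099 (SE of the fit, adjusted p with limma 0.020). It was the 1 partner gene that passed (1.83% of all genes were called higher at ZT03), and 0 were lower. Its adjusted p was 0.069 without ZT03 replicate 3, 0.080 without ZT11 replicate 1 and 0.065 without ZT11 replicate 3. The median of the 28 differences was 0.11, with 21 of 28 above 0, against 46.3% of all genes. Txnip (0.56 ± 0.31, adjusted p with limma 0.46) and Cat (0.53 ± 0.17, adjusted p 0.11) differed by more than Glrx and did not pass. For ZT03 against ZT11, 7 of the 28 had an unadjusted limma p under 0.05, against 14.5% of all genes. With limma, 0 of the 28 passed the test among time points, the 24 h test or the light-dark contrast, where 6, 4 and 3 had an unadjusted p under 0.05, against 13.4%, 10.8% and 10.5% of all genes.

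A list of 15 regulators of mitochondrial antioxidant genes, such as the coactivator gene Ppargc1a, also had 0 genes that passed any of these tests with limma, and at most 2 with an unadjusted p under 0.05 in any of them, where the share of all genes ran from 10.5% to 14.5%. The smallest p-values among time points were those of Bach1, which codes for a repressor that competes with NRF2 (adjusted p = 0.40), and Ppargc1a (adjusted p = 0.41). ZT03 minus ZT11 was -0.23 ± 0.077 (SE of the fit) for Bach1 and 0.12 ± 0.091 for Ppargc1a. The median over the 15 was -0.039.

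Of 14 genes of mitochondrial protein folding and proteolysis, 3 passed a test with limma, and they are named because they are few, chosen after their values were seen. Of all genes, 2.29% were called between ZT03 and ZT11, 1.48% among time points and 0.379% between light and dark. Yme1l1, the protease of the inner membrane that faces the intermembrane space, was higher at ZT03 than at ZT11 by 0.27 ± 0.061 (SE of the fit, adjusted p = 0.024), as Prdx3 was. Clpp, the proteolytic subunit of the matrix protease ClpXP, was lower at ZT03 by 0.25 (-0.25 ± 0.059, adjusted p = 0.028) and passed the test among time points (adjusted p = 0.030). Clpx, the unfoldase subunit of the same protease, was higher in the light phase by 0.25 ± 0.049 (adjusted p = 0.022), and ZT03 minus ZT11 was 0.028 for it. Clpx passed with each heart left out in turn. The call of Yme1l1 was lost without ZT03 replicate 1 (adjusted p = 0.053), 2 (0.051) or 3 (0.091) or ZT11 replicate 1 (0.095). The call of Clpp between ZT03 and ZT11 was lost without ZT03 replicate 1 (0.062), 2 (0.071) or 3 (0.082) or ZT11 replicate 1 (0.074), 2 (0.079) or 3 (0.055). Its call among time points was lost without ZT03 replicate 2 (0.052) or 3 (0.063) or ZT11 replicate 1 (0.066), 2 (0.086) or 3 (0.058). The median of ZT03 minus ZT11 over the 14 genes was 0.031.

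**Figure D5:**
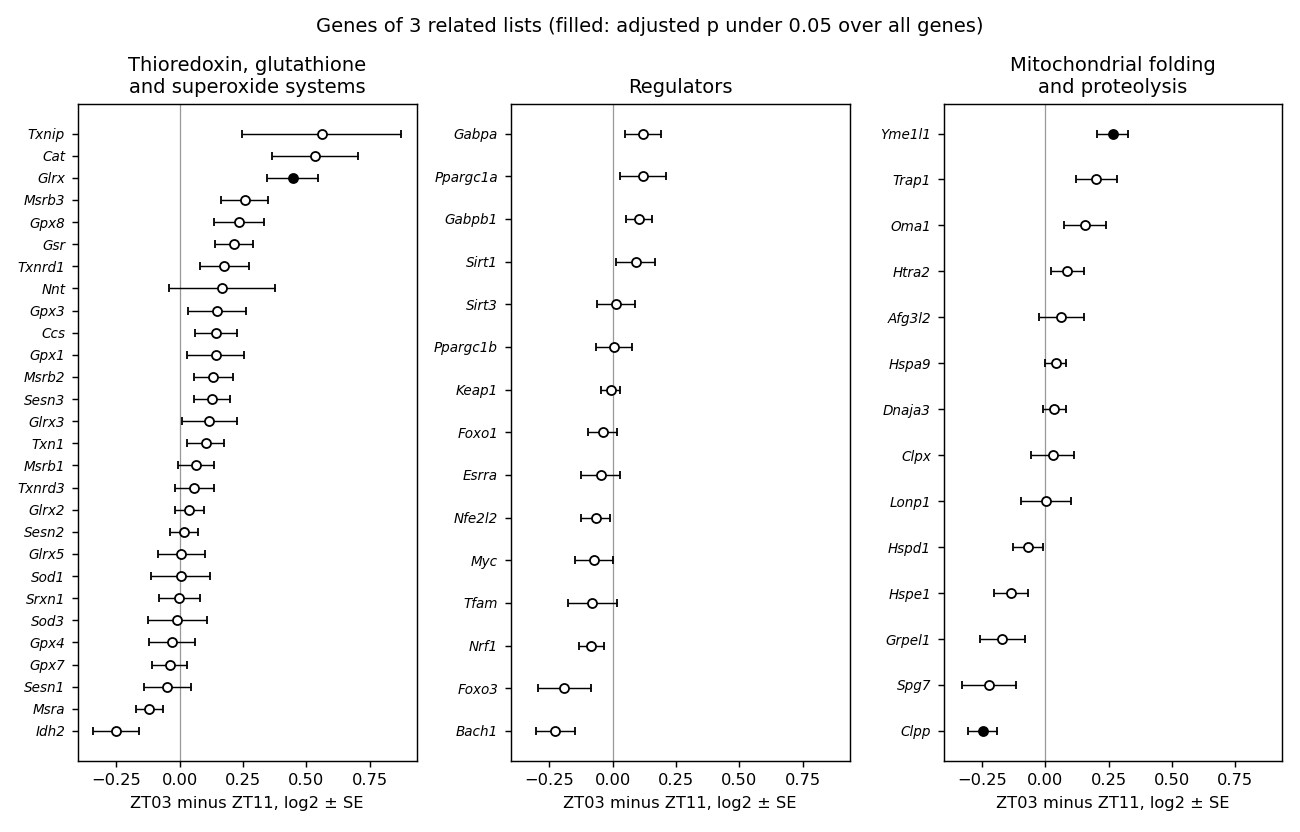
Each point is the log2 difference of ZT03 minus ZT11 of 1 gene with the SE of the fit, for 28 partner genes, 15 regulators and 14 genes of mitochondrial folding and proteolysis, filled where the adjusted p was under 0.05 over all genes. Glrx (0.45) and Yme1l1 (0.27) are filled above 0, and Clpp (-0.25) below 0.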

How the data were processed

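The data are 1 table of 34351 features by 24 arrays. Per the labels' protocols, 500 ng of total RNA was turned into biotin-labelled cRNA for Affymetrix arrays. The deposited values are on a log2 scale as taken here, and the authors had centred each feature on its own median (largest absolute median of a feature 5e-07). The log base, summarization, normalization between arrays and any filter are not given in the sources used here. Features with 1 symbol (23521) were averaged per gene, which left 22180 genes. No gene was filtered. Fits used limma 3.58.1 in R 4.3.3, and permutations Python 3.11.15 and numpy 2.4.6. The fits were tested on simulated data with 200 genes changed. Replicates are biological per the labels.

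The members and lists were chosen with earlier results of these data known. Named genes were all members, list genes that passed any of the 4 tests (otherwise the 2 of the partner or regulator list with the smallest p), and the 8 genes most like and 4 most opposite to Prdx3, leaving out gene models without a proper symbol. Alternatives were quantile normalization, array weights, features tested one by one, robust empirical Bayes, the replicate number as a block, a 12 h pair beside the 24 h pair, values taken as natural logs and leaving out hearts.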

Additional observations from a re-analysis of the deposited data

Results flagged for a closer look

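Among the 36 groups of 4 hearts (6 members at 6 time points), 3 held a heart whose gap to the nearest other exceeded, as a share of the group's range, Dixon's critical value for 4 samples, and chance gives about 1 in 20 groups. Prdx4 was at -0.043 in ZT07 replicate 2, with the nearest other heart at 0.19. Txn2 was at -0.0096 in ZT23 replicate 4, with the nearest other at -0.088. Sod2 was at 0.12 in ZT03 replicate 4, with the nearest other at 0.037.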

How the results depend on the processing

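The difference of Prdx3 between ZT03 and ZT11 (0.50) lay between 0.47 and 0.52 with each heart left out. It was 0.46 with quantile normalization, 0.49 with array weights and 0.73 with the values taken as natural logs. The sign of each member's difference between ZT03 and ZT11 and between light and dark held under every alternative run, except that of Sod2 between ZT03 and ZT11 (0.011), which was below 0 without ZT03 replicate 4 or ZT11 replicate 4, at -0.011 and -0.0019. The counts of called genes were less stable. With each heart left out in turn they ran from 190 to 747 for ZT03 against ZT11 (507 with all hearts), from 28 to 467 among time points (329), from 51 to 183 for light against dark (84) and from 3 to 45 for the 24 h curve (14). Without both ZT11 replicate 1 and ZT19 replicate 2, 237 genes were called between ZT03 and ZT11 and 131 between light and dark. With quantile normalization 144 were called between light and dark and 30 by the 24 h curve, which called 59 with array weights and 74 with a 12 h pair beside it. With the replicate number as a block, 218 genes were called among time points, and Clpp missed the threshold there (adjusted p = 0.053), as it did with quantile normalization (0.051) or without both those hearts (0.066). The labels do not say that a number marks a shared litter or day, and correlations of deviations between hearts of the same number ran from -0.23 to 0.23 (median -0.00075, against -0.00096 between different numbers), so the numbers were not taken as pairs. For 10 of 24 hearts the best match among hearts of other time points had the same number. Whether that is above chance was not tested, so a factor shared by hearts of 1 number is not excluded. Glrx, Yme1l1 and Clpp missed the threshold between ZT03 and ZT11 without both hearts named above (adjusted p = 0.061, 0.090 and 0.071), and Clpp also with quantile normalization (0.068). The cause of these changes was not tested. Signal over background is unknown for centred values.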
